A study of Caenorhabditis elegans with 8 samples.

Results

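The 10 genes described here work beside DAF-16 in the ageing and stress resistance of Caenorhabditis elegans, and their DAF-16 peaks were compared between strains: skn-1, hsf-1, pqm-1, hif-1, hcf-1, sir-2.1, smk-1, cst-1, par-5 and ftt-2. They were chosen by name, with earlier results of these data known, and every peak whose assigned gene carried one of these symbols was taken. Of the 10 genes, 5 had at least 1 peak in either strain, where 20.0% of the 19983 protein-coding genes did. They held 6 of the 5396 peaks of wild type (WT) and 6 of the 6859 peaks of daf-2(-), against 6391 genes with a peak in either list. DAF-16, the only FOXO transcription factor of the worm, was mapped by chromatin immunoprecipitation and sequencing (ChIP-seq) with a rabbit polyclonal antibody that recognises the isoforms of the endogenous protein. The 4 strains were WT (N2), daf-2(-) carrying the e1370 allele of the insulin/IGF-1 receptor gene, daf-16(-) carrying mgDf50, and the double mutant daf-16(mgDf50);daf-2(e1370), all grown as mixed-stage cultures at 20 °C. Each strain had 1 ChIP and 1 input library made from pooled chromatin, 8 libraries in all, and only the WT and daf-2(-) peak lists were compared. As the study's key to its datasets states, WT peaks that overlapped daf-16(-) peaks and daf-2(-) peaks that overlapped those of the double mutant had been left out. Binding in these worms is an average over stages and tissues.

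When insulin signalling is high, DAF-16 is phosphorylated and kept in the cytoplasm, where 14-3-3 proteins bind it. When signalling falls, DAF-16 enters the nucleus and meets coregulators and other stress-responsive transcription factors. PAR-5 and FTT-2 are the worm's 14-3-3 proteins, SIR-2.1 is a sirtuin deacetylase that acts with them on DAF-16, HCF-1 is a nuclear repressor of DAF-16, CST-1 is a kinase of the Mst family that promotes its nuclear entry, and SMK-1 is a regulatory subunit of protein phosphatase 4 that acts as a DAF-16 coregulator. SKN-1 (the worm's Nrf), HSF-1 (heat shock factor), HIF-1 (hypoxia-inducible factor) and PQM-1 (a zinc finger factor of the DAF-16-associated element) are transcription factors of neighbouring stress pathways.

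DAF-16 peaks fell on 3 of the 4 neighbouring transcription factor genes and on 2 of the 6 genes for proteins that act on DAF-16 itself, counted over both lists, against the 20.0% of protein-coding genes bound in either. In WT, 4 of the 10 genes had a peak (skn-1, smk-1, hif-1 and pqm-1), where 15.0% of the 19983 protein-coding genes did. In daf-2(-), 4 of the 10 had a peak (skn-1, smk-1, hif-1 and sir-2.1), where 18.0% of protein-coding genes did. The 3 genes in both lists were skn-1, smk-1 and hif-1, and 13.0% of protein-coding genes were in both. The peaks of pqm-1 were listed in WT only and that of sir-2.1 in daf-2(-) only, where 1.99% and 5.01% of protein-coding genes were confined to the WT and the daf-2(-) list. No peak of either list was assigned to hsf-1, hcf-1, cst-1, par-5 or ftt-2. With 10 genes and 1 library per strain and antibody these shares describe the lists, and no test was made. A gene with no peak had none that passed the peak caller and the study's filters, and a lower occupancy at such a gene was not detectable in lists of called peaks.

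**Figure D1:**
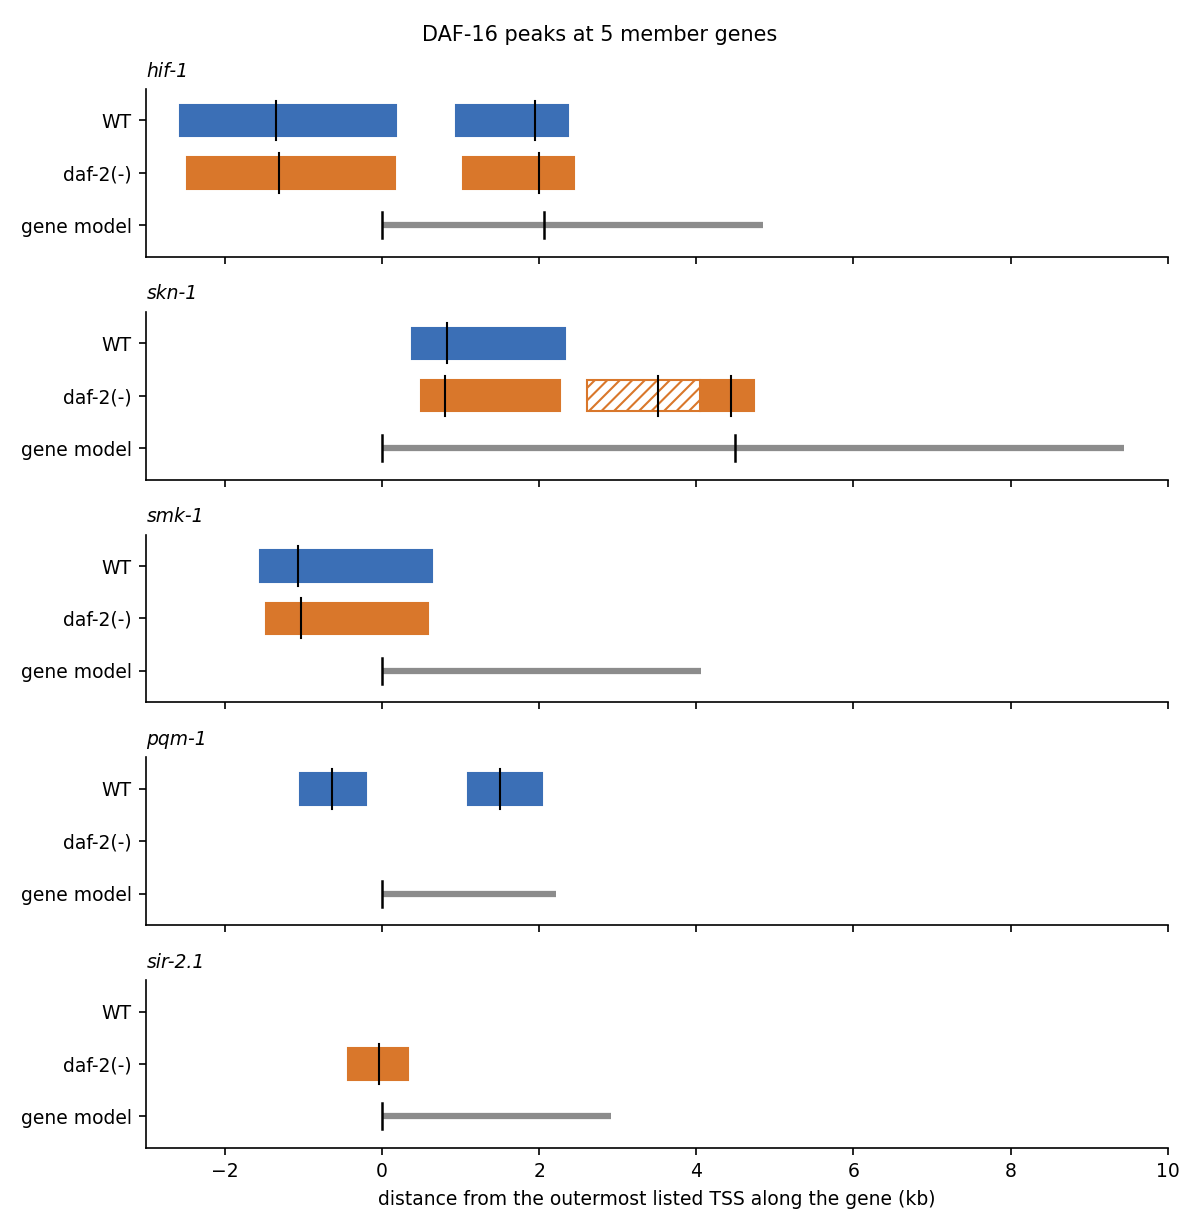
DAF-16 peaks along hif-1, skn-1, smk-1, pqm-1 and sir-2.1, in kb from the outermost listed transcription start site (TSS), with each gene read from left to right. Bars are peaks (blue WT, orange daf-2(-)), black lines in bars are summits, grey lines are gene models with listed TSSs as ticks, and the hatched bar is a peak assigned to the non-coding RNA gene T19E7.26. The peaks of hif-1 and smk-1 lie at nearly the same places in both strains, whereas skn-1 has 1 bar in WT and 3 in daf-2(-).

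hif-1, the gene of the hypoxia-inducible factor, carried the strongest binding of the 10. It is WBGene00001851 on the plus strand of chromosome V, and all positions are given as deposited, on the WS230 build named by the study. Its upstream peak covered chrV:20777841-20780586 in WT, 2746 bp, and chrV:20777922-20780574 in daf-2(-), 2653 bp. The deposited distance, from the peak centre to the TSS of transcript F38A6.3e, was 1197 bp upstream in WT and 1163 bp upstream in daf-2(-). This peak held 857 tags (exact Poisson 95% interval 801 to 916) in WT and 651 tags (602 to 703) in daf-2(-). Intervals of this kind cover counting error only, since there were no replicate libraries. Its summit was 216 tags high in WT and 150 in daf-2(-), with a fold enrichment over local background of 25.4 and 20.6. By fold enrichment it stood above 94.2% of the WT list and 93.5% of the daf-2(-) list. The false discovery rate (FDR) was 0.67% in WT and was listed at 0 in daf-2(-).

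A second hif-1 peak lay further into the gene, just before the TSS of the shorter transcript F38A6.3c. It covered chrV:20781353-20782779, 1427 bp, in WT and chrV:20781446-20782852, 1407 bp, in daf-2(-). Its centre was 406 bp and its summit 114 bp upstream of that TSS in WT. In daf-2(-) the centre was 323 bp and the summit 66 bp upstream. The peak held 237 tags (208 to 269) in WT and 207 tags (180 to 237) in daf-2(-), which are overlapping intervals. The summit, by contrast, was 72 tags high in WT and 88 in daf-2(-), and fold enrichment was 7.02 and 10.4. Its FDR was 0.14% in WT and was listed at 0 in daf-2(-). The same peak thus stood above 14.6% of the WT list and above 71.8% of the daf-2(-) list by fold enrichment. The median fold enrichment was 10.5 in the WT list and 7.24 in the daf-2(-) list. Part of a rise in percentile therefore comes from the lower values of the daf-2(-) list. The summits of both hif-1 peaks were 3301 bp apart in WT and 3310 bp apart in daf-2(-). Beside hif-1 on its low-coordinate side, the next gene, F38A6.4, had a strong peak of its own with 439 tags in WT and 445 in daf-2(-). In WT it covered chrV:20776546-20777801 and so ended just before the upstream hif-1 peak. Its summit was 227 tags high in WT and 195 in daf-2(-), with a fold enrichment of 29.0 and 25.9. By both measures it was above the upstream hif-1 peak in each list.

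skn-1, the gene of the Nrf-like factor of detoxification and the oxidative stress response, differed between the lists in how much of the gene was bound. It is WBGene00004804 on the minus strand of chromosome IV. A long peak within the gene, after the TSS of transcript T19E7.2a.1, was present in both lists. It covered chrIV:5658197-5660145, 1949 bp, in WT and chrIV:5658264-5660025, 1762 bp, in daf-2(-), with its centre 1352 bp and 1378 bp downstream of that TSS. It held 479 tags (437 to 524) with a summit of 135 and a fold enrichment of 17.1 in WT. In daf-2(-) it held 268 tags (237 to 302) with a summit of 91 and a fold enrichment of 11.6. The FDR was 0.35% in WT and was listed at 0 in daf-2(-). The tag intervals of the strains do not overlap, and the WT value is the higher. These tags are not scaled between the lists, and the median ratio of daf-2(-) to WT over peaks found in both was 0.680.

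In daf-2(-) 2 further peaks lay on the skn-1 locus that had no overlapping WT peak. The first was assigned to skn-1 itself, at the inner TSS of transcript T19E7.2c.5, which lies 4495 bp from the outer TSS. It covered chrIV:5655794-5656476, 683 bp, centred 107 bp upstream, and was weak, with 96 tags (77.8 to 117), a summit of 53, a fold enrichment of 5.67 and an FDR of 0.05%. The other, at chrIV:5656480-5657917 (1438 bp), was the strongest on the locus. It was assigned to T19E7.26 (WBGene00199642), a short non-coding RNA gene inside the skn-1 model, and so is no member by name. This peak held 481 tags (439 to 526), its summit was 137 tags high and its fold enrichment was 15.4, above 87.4% of the daf-2(-) list. Its summit lay 987 bp upstream of the inner skn-1 TSS and 3508 bp downstream of the outer one. A gap of 3 bp separated it from the weak peak and 346 bp from the long one, so the 3 daf-2(-) peaks together held 845 tags. Whether a WT peak was called here and then left out for overlapping a daf-16(-) peak was not analysed here.

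smk-1, which encodes the protein phosphatase 4 subunit, had 1 wide peak over its start in both lists. It is WBGene00018285 on the plus strand of chromosome V. The peak covered chrV:8609470-8611665, 2196 bp, in WT and chrV:8609540-8611603, 2064 bp, in daf-2(-). Its centre was 456 bp and 452 bp upstream of the TSS of transcript F41E6.4b. The summits lay further out, 1067 bp and 1031 bp upstream. The peak held 570 tags (524 to 619) with a summit of 140 and a fold enrichment of 15.7 in WT. In daf-2(-) it held 365 tags (329 to 404) with a summit of 102 and a fold enrichment of 12.7. The FDR was 0.39% in WT and was listed at 0 in daf-2(-). Tags were again higher in WT, with intervals that do not overlap. These tags are not scaled between the lists. Their ratio of daf-2(-) to WT, 0.640 (0.560 to 0.732), has an interval that includes 0.680, the median over peaks found in both lists. In each list the peak was longer than over 94% of the others, at percentile 94.7 for length in WT and 96.7 in daf-2(-).

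pqm-1 was bound in the WT list only. PQM-1 is known to occupy the nucleus when DAF-16 does not, and the reverse. The gene is WBGene00004096 on the minus strand of chromosome II, with its TSS at 11152600. An upstream peak at chrII:11152802-11153650, 849 bp and centred 626 bp before the TSS, held 121 tags (100 to 145). Its summit was 84 tags high, its fold enrichment was 9.11 and its FDR was 0.45%. A peak within the gene at chrII:11150560-11151511, 952 bp and centred 1564 bp after the TSS, held 158 tags (134 to 185). Its summit was 81 tags high, its fold enrichment was 7.77 and its FDR was 0.26%. Both were below the median fold enrichment of the WT list, 10.5, at percentiles 36.7 and 22.0. Among the 526 WT peaks within 0.5 of the upstream peak in fold enrichment, 85.6% overlapped a daf-2(-) peak. For the 577 WT peaks similar to the inner one the share was 78.0%. The nearest daf-2(-) peak, assigned to K07C10.5, began 2317 bp beyond the upstream peak. The next gene in order, ptr-13, had 2 daf-2(-) peaks of 64 tags each and no WT peak.

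sir-2.1, the sirtuin gene, was bound in the daf-2(-) list only. It is WBGene00004800 on the minus strand of chromosome IV. The peak covered chrIV:10365913-10366676, 764 bp, with its centre 57 bp and its summit 38 bp upstream of the TSS of transcript R11A8.4b.3. It held 76 tags (59.9 to 95.1), the fewest of the 12 member peaks. The summit was 57 tags high, the fold enrichment was 6.84 and the FDR was 0.1%. By fold enrichment it stood at percentile 45.5 of its list. Of the 789 daf-2(-) peaks within 0.5 of it in fold enrichment, 69.3% overlapped a WT peak, and the nearest WT peak to it was 13622 bp away. As at skn-1, whether a WT peak had been left out here for overlapping a daf-16(-) peak was not analysed. In both lists, then, the members found in a single strain had peaks below their own list's median fold enrichment, which was 7.24 in daf-2(-).

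**Figure D2:**
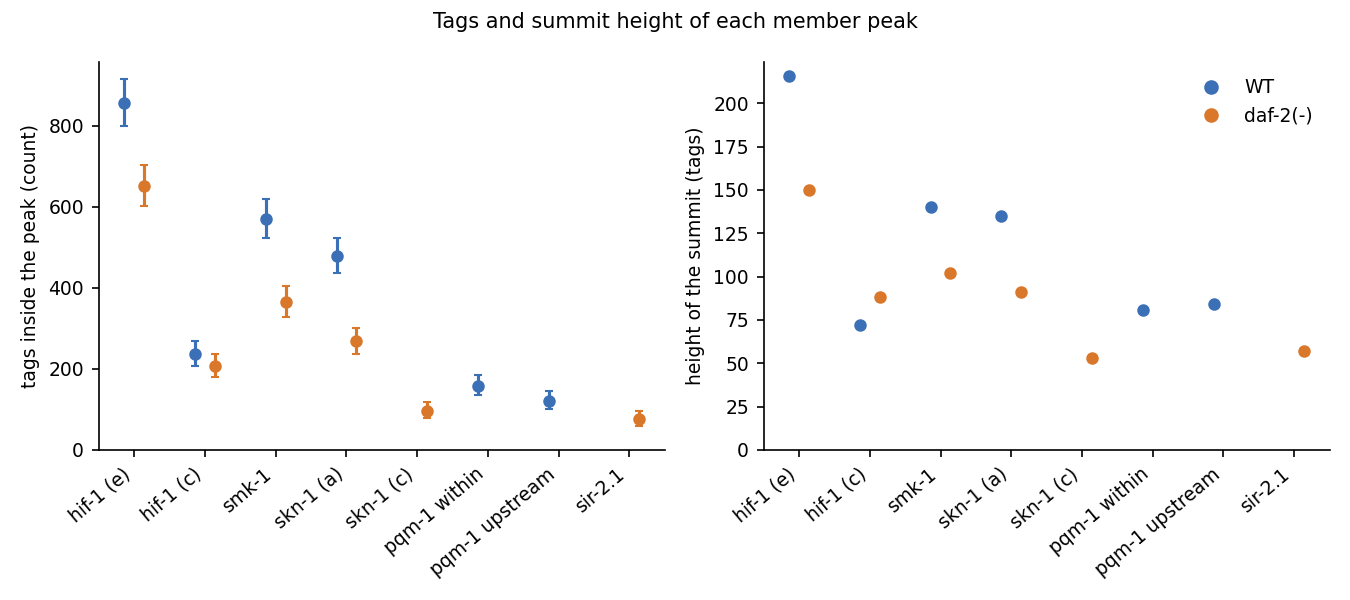
Tags inside each member peak (left, count, bars are exact Poisson 95% intervals) and height of its summit (right, tags), WT in blue and daf-2(-) in orange. Letters in brackets give the transcript whose TSS the peak was assigned to. The upstream hif-1 peak is highest at 857 tags in WT and 651 in daf-2(-), and the inner hif-1 peak is the shared one whose summit is higher in daf-2(-), at 88 against 72.

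For the 4 peaks found in both strains, the values were set against those of every shared peak, because values over the daf-2(-) list were lower as a whole. Library totals are not in the lists, and the part of sequencing depth in this was not tested. The study scaled reads to library totals, subtracted input and applied quantile normalisation. On that scale it reports that average peak heights increased in daf-2(-) for activated, repressed and unchanged genes bound in both strains. The unscaled values here therefore do not measure a change in binding between strains. Of the 6 WT member peaks 4 overlapped a daf-2(-) peak (87.4% over the WT list), and of the 6 daf-2(-) member peaks 4 overlapped a WT peak (70.6% over that list). Over the 4717 shared pairs the median ratio of daf-2(-) to WT was 0.680 for tags, 0.692 for summit height and 0.764 for fold enrichment. Tags fell short of WT in all 4 member pairs, with 0 of 4 higher in daf-2(-), where 6.87% of shared pairs were. For skn-1 the ratio of tags was 0.559 (exact 95% counting interval 0.480 to 0.651), at percentile 24.97 of the shared pairs. For smk-1 it was 0.640 (0.560 to 0.732), for the upstream hif-1 peak 0.760 (0.685 to 0.842) and for the inner hif-1 peak 0.873 (0.721 to 1.06). The interval of skn-1 lies below the median over shared pairs, those of both hif-1 peaks lie above it, and that of smk-1 includes it. These intervals leave out the spread among pairs. By percentile of the shared pairs smk-1 stood at 41.1, the upstream hif-1 peak at 66.8 and the inner one at 84.0. The ratios of smk-1 and of the upstream hif-1 peak were thus between the quartiles of the shared pairs. With tags divided by the median over shared peaks, a scaling added after the values were seen, 2 of the 4 pairs (both of hif-1) were higher in daf-2(-).

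Summit height gave another order. It was higher in daf-2(-) for 1 of the 4 pairs, the inner hif-1 peak, where 6.17% of shared pairs were higher. The ratio there was 1.22 (0.885 to 1.69, with heights taken as counts), at percentile 98.5, and fold enrichment rose by a ratio of 1.47, at percentile 98.9. The ratio of heights was 0.674 (0.511 to 0.886) for skn-1, 0.729 (0.559 to 0.947) for smk-1 and 0.694 (0.560 to 0.859) for the upstream hif-1 peak. Those 3 stood between percentiles 45.6 and 58.4, close to the middle of the shared pairs. With heights divided by the median of shared peaks in each list, 3 of the 4 pairs were higher in daf-2(-), all but skn-1. The ratio of these medians was 0.691, and the upstream hif-1 peak, at 0.694, was nearly even with it. The intervals of skn-1, smk-1 and the upstream hif-1 peak all include 0.691. Within hif-1, where both peaks come from the same library, the upstream summit was 3 times the inner one in WT and 1.70 times in daf-2(-). The quotient of these ratios was 1.76 (1.19 to 2.61). For tags the upstream peak held 3.62 times the inner one in WT and 3.14 times in daf-2(-), a quotient of 1.15 (0.924 to 1.43) whose interval includes 1. The inner hif-1 peak was singled out after its values were seen.

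**Figure D3:**
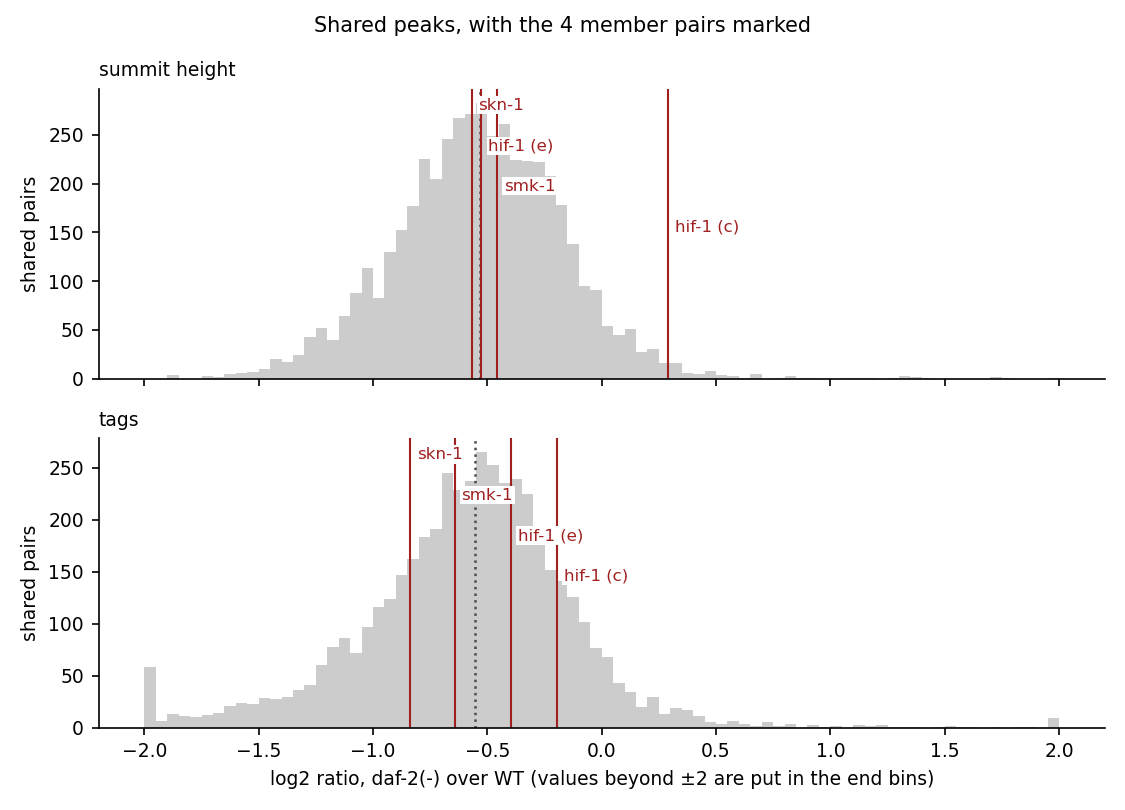
Log2 ratio of daf-2(-) to WT over the 4717 shared pairs (grey bars, number of pairs) for summit height (top) and tags (bottom), with the 4 member pairs as red lines and the median over pairs dotted. For height, skn-1, smk-1 and the upstream hif-1 peak (e) sit near the median of -0.53 and the inner hif-1 peak (c) sits apart at 0.29.

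The member summits were also displaced between the lists in 1 direction. The daf-2(-) summit lay at a higher coordinate than the WT summit by 34 bp at skn-1, 36 bp at smk-1, and 39 bp and 48 bp at hif-1. Because skn-1 is on the minus strand and the others are on the plus strand, this direction follows the chromosome and not the gene. It was shared by the rest of the data. Over the 4717 pairs the median displacement was 28 bp, and 76.8% of the 4674 displaced pairs had the daf-2(-) summit at the higher coordinate. The median was 27 bp for genes on the plus strand and 29 bp for genes on the minus strand. Among the shared pairs within 0.5 Mb of each member, the median was 11 bp around skn-1 (45 pairs), 22 bp around smk-1 (42 pairs) and 32 bp around hif-1 (17 pairs). The displacement of smk-1 and of the upstream hif-1 peak was within the quartiles of their surroundings, which ran from 7.75 to 38 bp and from 19 to 41 bp. Those of skn-1 and of the inner hif-1 peak were above the upper quartiles of 30 and 40 bp.

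The displacement was larger at the far end of chromosomes II to V and X than at their start. When the pairs of each chromosome were split by position into 10 equal parts, the median in the first part lay between -3.5 and 7 bp. In the last part it was 71 bp on chromosome II, 79 bp on III, 70.5 bp on X, 29.5 bp on IV and 28.5 bp on V, but 8 bp on I. The course between was uneven on IV, where the sixth part fell back to 9 bp, and on V, where the fifth part reached 28.5 bp and the eighth fell back to 12 bp. The gene models did not move: the 3957 transcripts found in both lists had the same start and end in each. Distances to a TSS therefore carry an offset of this size between the lists. It is small beside the distances of the upstream hif-1 peak and of the long skn-1 peak. The sir-2.1 peak, at 57 bp, is on chromosome IV, where the median displacement was 17 bp. The study names a single build for both lists, and its use for both was not tested.

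**Figure D4:**
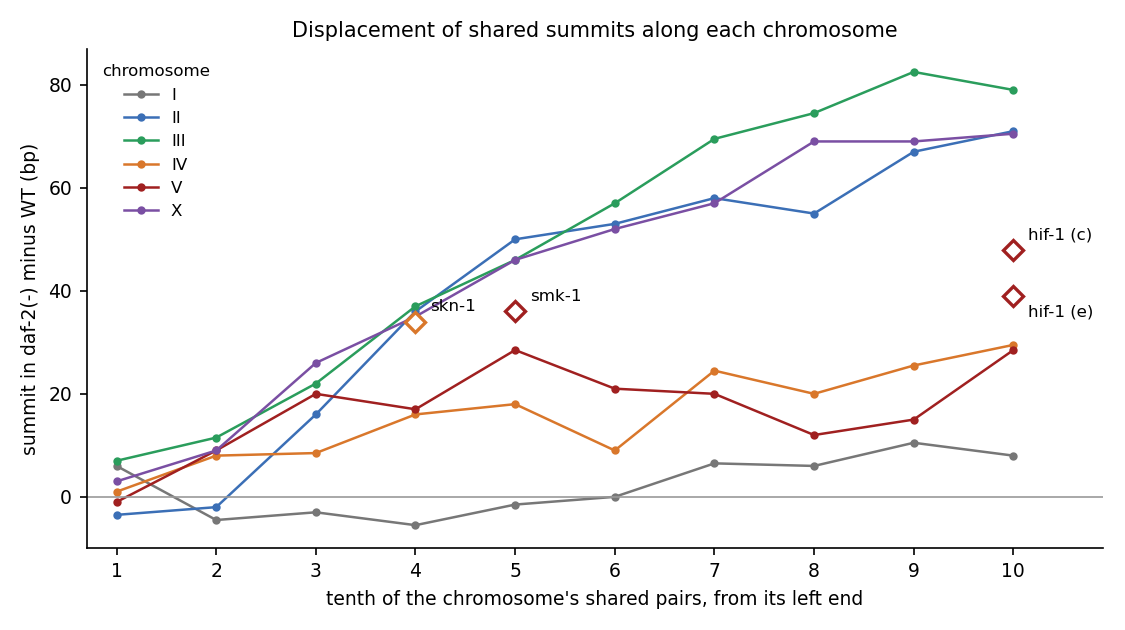
Median displacement of shared summits (bp, coordinate in daf-2(-) minus coordinate in WT) in 10 equal parts of each chromosome's shared pairs, from its left end, with the 4 member pairs as open diamonds in the colour of their chromosome. Medians start near 0 and reach 71, 79 and 70.5 bp in the last part on II, III and X, IV and V stay below 30 bp with dips on the way, and chromosome I ends at 8 bp.

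Position relative to the TSS was then counted, since the study grouped peaks by it. In WT 2 of the 6 member peaks were centred within 0.5 kb upstream of a TSS (smk-1 and the inner hif-1 peak), where 36.5% of the list were. Measured from the summit it was 1 of 6, since the smk-1 summit lay further out. In daf-2(-) 4 of 6 were (smk-1, the inner hif-1 peak, sir-2.1 and the weak skn-1 peak), where 37.0% were. The sir-2.1 peak and the weak skn-1 peak, listed in daf-2(-) only, were shorter than that list's median of 835 bp, whereas both pqm-1 peaks of WT lay outside this window. Several peaks on 1 gene were found for hif-1 in both lists, for pqm-1 in WT and for skn-1 in daf-2(-). Thus 2 of the 4 bound members in each list had at least 2 peaks, where 14.1% of bound protein-coding genes did in WT and 17.8% in daf-2(-).

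The 5 genes with no peak of their own differed in how close genes with a peak lay in the gene order. This order counts non-coding genes and pseudogenes as steps, and distances in bp from these members to a peak were not measured. The kinase gene cst-1 and the repressor gene hcf-1 had none nearby in the gene order: the closest genes with a peak were the 18th and 20th from cst-1 and the 5th and 14th from hcf-1. Reads were kept by the study only where they aligned uniquely, which leaves out any that match cst-1 and its close copy cst-2 equally well. Whether this bears on the absence of a cst-1 peak was not tested. For hsf-1 the neighbouring pseudogene Y53C10A.1 on chromosome I had a peak of 195 tags and a fold enrichment of 10.7 in WT, and of 121 tags and 6.58 in daf-2(-).

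Among the first genes with a peak on each side of a member in the gene order, those of highest fold enrichment were found for both 14-3-3 genes. The 2nd gene from par-5 was the non-coding RNA gene M117.12 (WBGene00200601), with a peak at chrIV:11821565-11822657 in WT. It held 418 tags (379 to 460) with a summit of 260 and a fold enrichment of 32.4 in WT, above 98.3% of the list. In daf-2(-) it held 283 tags (251 to 318) with a summit of 197 and a fold enrichment of 27.0. Near ftt-2, the 4th gene in order was the non-coding RNA gene F52D10.9 (WBGene00197592), with a peak at chrX:11604905-11608815 in WT that was 3911 bp long. That peak held 1709 tags (1629 to 1792) in WT and 1356 tags (1285 to 1430) in daf-2(-), above 99.7% and 99.8% of the lists. Its fold enrichment was 32.4 in WT and 38.8 in daf-2(-), and its WT FDR of 3.7% was the highest of the list. M117.12 and F52D10.9 were singled out after their values were seen, since the genes directly next to both members had no peak of this size. The gene next to par-5 had no peak. F52D10.10, the non-coding RNA gene next to ftt-2, had a WT peak of 203 tags with a fold enrichment of 8.95 and no overlapping daf-2(-) peak. Which gene such a peak serves cannot be told from its position.

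The wider circle of regulators was read from 6 lists of 55 genes, chosen with earlier results of these data known. Of these genes, 23 had a peak in WT (15.0% of protein-coding genes did) and 26 in daf-2(-) (18.0% did). When only peaks enriched at least 10 times over background were kept, these counts were 16 in WT (9.15% of protein-coding genes) and 13 in daf-2(-) (6.42%), so that the order of the strains turned round. Peaks in both lists were found for 22 genes, in WT only for 1, in daf-2(-) only for 4, and in neither for 28, where the shares of protein-coding genes were 13.0% for both lists, 1.99% for WT alone and 5.01% for daf-2(-) alone. The counts for a single strain are thus near the background. Among organelle stress regulators 8 of 10 genes were bound in both lists: atfs-1 and dve-1 of the mitochondrial response with ubl-5, the endoplasmic reticulum sensors ire-1, pek-1 and atf-6, and the factors xbp-1 and atf-4. Among DAF-16 cofactors and modifiers 3 of 17 were bound in WT (swsn-4, daf-12 and elt-2) and 4 of 17 in daf-2(-), which is near the share of all protein-coding genes. Differences between the lists of genes were not tested. Among SKN-1 regulators and partners 5 of 8 were bound in WT and 6 in daf-2(-), among HIF-1 regulators 4 and 5 of 9, and among HSF-1 regulators 2 of 7 in both lists (hsb-1 and daf-21). Of the other protein phosphatase 4 subunits, 1 of 4 was bound, ppfr-1, in both lists.

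**Figure D5:**
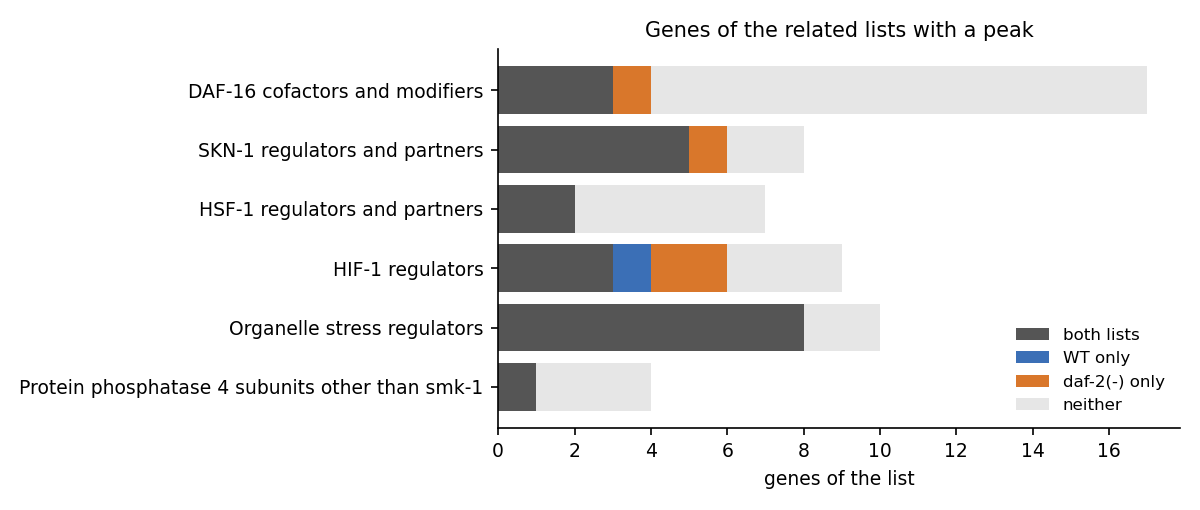
Number of genes in each of the 6 related lists with a peak in both lists (dark grey), in WT only (blue), in daf-2(-) only (orange) or in neither (light grey). Organelle stress regulators have 8 of 10 genes in both lists, and DAF-16 cofactors and modifiers have 13 of 17 in neither. The related lists were chosen with earlier results of these data known.

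The tallest summits of these lists in WT belonged to xbp-1 (265 tags), a factor of the unfolded protein response, to daf-12 (261), a nuclear hormone receptor, and to hlh-30 (259), the worm's TFEB. In daf-2(-) they belonged to hlh-30 (230), to hsb-1 (197), an inhibitor of HSF-1, and to xbp-1 (191). Each of these was taller than the 216 of hif-1 in WT and the 150 of hif-1 in daf-2(-). Of the genes found in daf-2(-) only, the acetyltransferase gene cbp-1 had the strongest peak, with 333 tags and a fold enrichment of 19.2. That peak overlapped a WT peak assigned to another gene. The WT peak of elb-1, the Elongin B gene, held 135 tags and likewise overlapped a daf-2(-) peak assigned elsewhere. The other 3 had daf-2(-) peaks with no listed WT peak under them, and WT peaks left out for overlapping daf-16(-) peaks were not analysed. The tallest peak held 148 tags at swan-1, which had 2 peaks, 72 tags at xrep-4 and 53 tags at cul-2, a ubiquitin ligase subunit that acts on HIF-1.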

How the data were processed

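ChIP-seq of 4 strains gave 8 libraries, grouped by the sample labels. Per the study, the authors trimmed reads with Cutadapt, aligned them with Bowtie 0.12.7 to WS230 keeping unique alignments, called peaks with MACS 1.4.2 against input, with CASAVA 1.8.2 upstream per the submitters' processing notes, and assigned each peak to the nearest TSS. The strain of each of the 2 deposited peak lists comes from its deposited name and the study's methods. The authors deposited tags as a count per peak. The deposited height is the pileup signal at the summit, and the deposited fold enrichment is the ratio of the summit over local background. The authors gave the FDR as a percent, and the deposited daf-2(-) list also holds a p-value score, which was not used. The lists do not hold library totals: tags inside peaks summed to 1315194 in WT and 1051563 in daf-2(-). A density table in 25-bp bins has 1 value column that names no sample and was not used.

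Peaks overlapping by at least 1 bp were called shared, and a shared WT peak was matched to the overlapping daf-2(-) peak of the nearest summit. Tags have exact Poisson 95% intervals and ratios exact conditional (Clopper-Pearson) 95% intervals, all for counting error only. No p-value was computed, because no library had a replicate. Percentiles give the share of a list, or of shared pairs, with a lower value. Symbols, biotypes and gene order came from the RefSeq table of WBcel235, and 98.8% of WT and 98.7% of daf-2(-) peaks matched it. Its coordinates served to order the genes, and no position or distance given here was taken from them. The members and the related lists were chosen with earlier results of these data known. Of the related lists, swsn-8 matched no RefSeq gene and atf-5 is the same RefSeq gene as atf-4, so neither was counted. The genes named were the members, the related genes with a peak in a single list, the 3 tallest of each list, and the genes next to a member, with further ones named as singled out. Alternatives were peak strength, FDR, window, assignment, overlap, measure and scaling. Overlap, pairing and intervals were tested on simulated data. Motifs were not searched, since no WS230 genome sequence was used here. The software was scipy 1.17.1, pandas 2.3.3 and numpy 2.4.6 under Python 3.11.15, with matplotlib 3.10.9 for plots.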

Additional observations from a re-analysis of the deposited data

How the results depend on the processing

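Of 27 alternatives, 22 kept the counts within 1.5 times, among them settings that could not change them. Members with a peak stayed at 3 or 4 of 10 in each list, and members in both lists at 2 or 3. This held at a fold enrichment of at least 10, but pqm-1 and sir-2.1 then dropped out. Each list kept 3 members, and these 3 were in both. It also held for peaks between 2.5 kb before and 300 bp after the TSS. There skn-1 was in the daf-2(-) list only, since its WT peak is centred 1352 bp downstream of its TSS. An FDR limit of 1% could not change these counts. No daf-2(-) peak had an FDR above 0.15%, and the highest of a WT member peak was 0.67%. Assignment by the gene model was applied only to members that already had a peak, so it could not add an absent member. The 5 other alternatives moved the counts. Shared member pairs with more tags in daf-2(-) went from 0 to 1 with tags over the total of the list, and to 2 with tags over the median of shared peaks, which was added after the data were seen. Pairs with a higher summit in daf-2(-) went from 1 to 3 with height over the median of shared peaks, where the upstream hif-1 pair was nearly even. WT member peaks within 0.5 kb upstream went from 2 to 1 when measured from the summit. Genes of the related lists with a daf-2(-) peak went from 26 to 13 at a fold enrichment of 10 or more, which tests fewer peaks, while those with a WT peak went from 23 to 16, which turned the order of the strains round. Scaling decides how many of the 4 pairs count as higher in daf-2(-), and the cause of the other changes was not tested. No paired analysis was possible because no library had a replicate. The planned motif search was not run. The weakest peak listed had 54 tags (WT) or 39 tags (daf-2(-)). The part of depth in the absence of members from the lists was not tested.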

Other observations

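Beside hif-1 and smk-1, the genes on their other sides in the gene order that had peaks were bound in both lists with somewhat fewer tags in daf-2(-), where the median ratio of tags over shared pairs was 0.680. The tpan-1, the 2nd from hif-1, had 223 WT tags and 211 daf-2(-) tags. The autophagy gene atg-18, the 9th from smk-1, had 298 WT tags and 265 daf-2(-) tags, and its summit coordinate was the same in both. Near sir-2.1, mask-1, the 4th gene in order, had a peak of 379 WT tags and 307 daf-2(-) tags. These genes were singled out after their values were seen.

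The start of the paired peaks moved more than their end. Over the 4717 shared pairs the daf-2(-) start lay at a higher coordinate by a median of 69 bp and the end at a lower coordinate, with a median displacement of -7 bp. At skn-1 the start moved by 67 bp and the end by -120 bp, and at the inner hif-1 peak the start moved by 93 bp and the end by 73 bp. The cause was not tested.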
